A study of Mus musculus with 8 samples.

Results

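The nuclei described here are those named Diff.GABA.interneuron, differentiated GABAergic interneurons, in the annotation deposited for the paraflocculus and flocculus (PF/F), the paired lateral lobes of the mouse cerebellum. They were found by that label alone and matched by library and barcode to the raw unique molecular identifier (UMI) counts. The label was carried by 3601 nuclei, 7.47% of the 48237 annotated PF/F nuclei and 4.54% of the 79313 annotated nuclei of the series, which also holds the petrous temporal bone. PF/F tissue came from 2 groups of mice at P5.5: wild-type (WT) littermates and mice heterozygous for a Tbx1 deletion (Tbx1+/-). Each group had 2 single-nucleus libraries, 1 in each of 2 batches, and each library pooled 5 mice, so that the 4 libraries and not the nuclei or mice are the replicates. The deletion is constitutive, hence present in every cell, and no group lacked Tbx1 on both alleles.

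The type held 906 nuclei in WT library 1, 941 in Tbx1+/- library 1, 673 in WT library 2 and 1081 in Tbx1+/- library 2. Its nuclei had a median of 3290, 3083, 4099 and 4141 UMIs in that order, so both libraries of batch 2 were deeper than both of batch 1. Summed over the type, 3278316 to 5098365 UMIs were available per library. The median nucleus kept 0.762 to 0.826 of its UMIs after the authors' correction for free RNA, with the lower ratios in batch 1. 1 barcode of the type was shared between libraries.

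Inhibitory interneurons of the cerebellum arise from progenitors of the ventricular zone that express the transcription factor Ptf1a. Their precursors switch on the paired-box factor Pax2 around their last division, migrate through the white matter, and settle as Golgi, basket and stellate cells, the deepest first and the stellate cells of the molecular layer last. In the first postnatal week many are still on their way. They signal with GABA, made by the glutamate decarboxylases Gad1 and Gad2, and Golgi cells among them also release glycine.

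The markers of the label were present in all libraries. Pax2 was at 526 CPM, counts per 1000000 UMIs summed over the type, in WT library 1, 501 in Tbx1+/- library 1, 659 in WT library 2 and 596 in Tbx1+/- library 2. These 4 values, with a mean of 571 ± 71.6 (SD, n = 4), compare with means of 179 CPM in GABA interneuron progenitors, 10.6 in the smaller type labelled GABA.interneuron and 7.99 in Purkinje cells. Pax2 thus set the type apart from the other GABAergic types in each library. Gad2 was at 205, 230, 276 and 270 CPM in the same order of libraries, with a mean of 245 ± 33.9 (SD, n = 4). Its mean was 26.6 CPM in progenitors and 162 in Purkinje cells, while the GABA.interneuron type stood higher, at 297 CPM. Because types were clustered and named on these same counts, all comparisons between types are descriptions, with no test.

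The start of each marker gene is shown because the AP-2 factors Tfap2a and Tfap2b, which bind the palindrome GCCNNNGGC, were also among the genes of the type. Capitals in the first 2 sequences mark this motif, which reads the same on both strands. Each sequence runs from 250 bases before to 50 bases after a RefSeq start site (GRCm38.p6, + strand). Pax2 lies on chr19:44756045-44837871 and Gad2 on chr2:22622205-22693874, both on the + strand. In the third sequence, from the vesicular GABA transporter gene Slc32a1, capitals mark the 45 bases that span the annotated starts of Slc32a1 and of the noncoding Gm14204 on the other strand.
Pax2, chr19:44755502-44755801: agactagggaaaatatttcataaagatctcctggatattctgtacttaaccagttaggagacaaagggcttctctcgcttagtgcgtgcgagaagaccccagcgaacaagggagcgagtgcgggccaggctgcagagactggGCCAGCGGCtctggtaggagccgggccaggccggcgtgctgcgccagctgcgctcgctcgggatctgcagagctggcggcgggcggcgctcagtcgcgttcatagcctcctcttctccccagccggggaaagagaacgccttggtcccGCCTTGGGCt
Gad2, chr2:22622077-22622376: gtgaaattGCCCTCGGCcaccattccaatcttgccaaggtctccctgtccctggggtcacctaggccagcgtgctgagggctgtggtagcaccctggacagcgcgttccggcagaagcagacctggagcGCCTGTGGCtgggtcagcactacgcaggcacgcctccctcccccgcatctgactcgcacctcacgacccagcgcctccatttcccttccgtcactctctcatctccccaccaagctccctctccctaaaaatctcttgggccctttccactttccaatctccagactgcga
Slc32a1, chr2:158610508-158610807: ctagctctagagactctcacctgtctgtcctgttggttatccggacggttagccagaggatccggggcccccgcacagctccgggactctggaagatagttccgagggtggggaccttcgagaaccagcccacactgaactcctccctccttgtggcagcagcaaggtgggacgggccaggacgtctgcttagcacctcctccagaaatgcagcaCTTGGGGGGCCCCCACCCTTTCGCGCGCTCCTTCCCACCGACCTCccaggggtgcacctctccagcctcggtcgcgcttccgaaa
The motif occurred at 2 positions in each of the first 2 windows, and at 0 in the windows at the other annotated starts of Pax2 (chr19:44746351-44746650 and chr19:44756656-44756955). Kit held 1 in each of its overlapping windows, and Gad1, Slc6a5, Nxph1, Slc32a1 and Tfap2b held 0. Of 32851 mouse promoters of the same length, 5450 (16.6%) held it. A match of letters is no measure of binding.

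Genes that handle GABA were largely higher than in the progenitors. Of the 8 members of the list for GABA synthesis, packing and uptake, all 8 were measured, 5 were more than 2-fold higher in all 4 libraries and 0 were lower, with a median log2 difference of 2.13. Among all 13908 genes measured in the type, 7.22% were that much higher than in progenitors, 6.32% were that much lower, and the median log2 difference was -0.16. Gad1, the decarboxylase that makes most of the brain's GABA, was at 805, 893, 780 and 750 CPM against a progenitor mean of 53.7, a log2 difference of 3.89 ± 0.20 (SD, n = 4). For Gad2, which is bound to synaptic vesicles, the difference was 3.15 ± 0.20. Slc32a1, which loads GABA and glycine into vesicles, was at 99.3, 116, 94.6 and 96.1 CPM against a mean of 16.6. All these genes were lower in progenitors in each library.

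Glycine transport set the type further apart. Slc6a5, the neuronal glycine transporter and a marker of glycinergic neurons, was at 152, 149, 170 and 169 CPM, with means of 26.8 CPM in progenitors, 1.52 in the GABA.interneuron type and 2.64 in Purkinje cells. The values of the 4 libraries lay within a narrow band. The GABA-degrading enzyme Abat (mean 120 CPM against 153 in progenitors) and the astroglial GABA transporter Slc6a11 (25.8 against 50.8) were below the progenitor level.

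Of the 18 lineage factors listed, 12 were measured. Pax2 and Meis2 were more than 2-fold higher than in progenitors in 4 of 4 libraries, and Prdm13, Neurog2, Pax3, Zfhx3 and Meis1 were among those more than 2-fold lower. Pax2 differed by 1.67 ± 0.09 on the log2 scale (SD, n = 4), less than Gad1 or Gad2. Pax3, a paired-box factor, had a mean of 81.9 CPM against 1306 in progenitors. Ptf1a, too low to be among the genes measured in the type, had 1.11 CPM against 48.7. Tfap2b, an AP-2 factor of the inhibitory lineage, stayed high, at 338, 400, 408 and 411 CPM against a progenitor mean of 769, and was low in the GABA.interneuron type (9.06) and in Purkinje cells (10.1). Tfap2a had 143 CPM against 218. The LIM factors Lhx5 (68.8 CPM against 97.4) and Lhx1 (87.5 against 209) were below the progenitor level, and Lhx1 was also below its level of 190 in Purkinje cells.

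**Figure D1:**
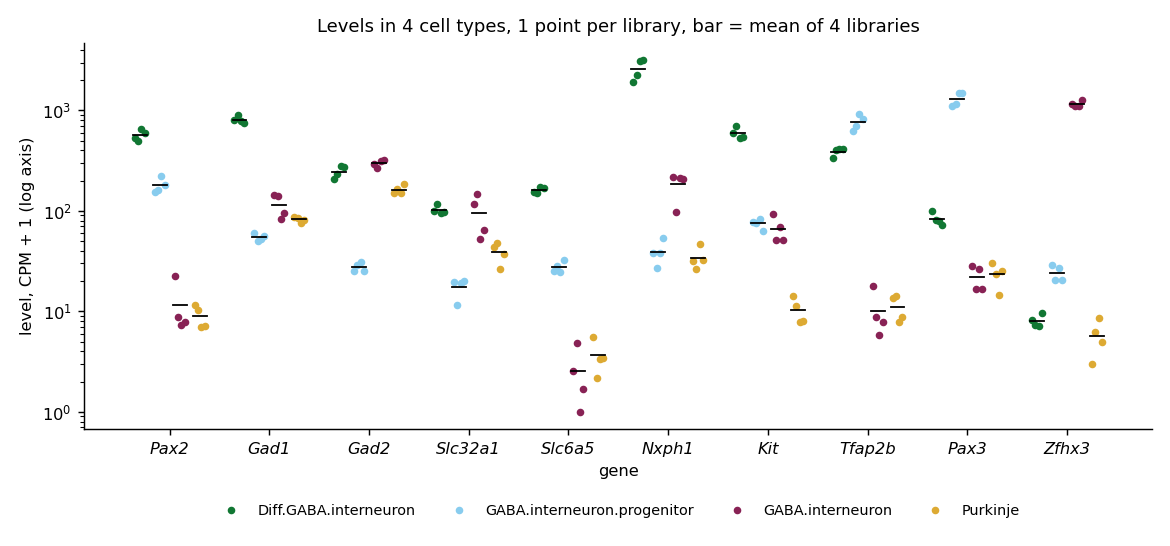
Levels of marker genes in 4 GABAergic types of the PF/F, in CPM + 1 on a log axis, with 1 point per library and a bar at the mean. Pax2, Slc6a5, Nxph1, Kit and Tfap2b separate the differentiated interneurons from Purkinje cells and the GABA.interneuron type, whereas the mean for Gad2 is 245 CPM in the type and 297 CPM in the GABA.interneuron type.

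Measured against all other PF/F nuclei pooled, 2.77% of the 13908 genes were more than 2-fold higher in 4 of 4 libraries and 4.71% were more than 2-fold lower. The 15 genes with the highest median ratio, among those at 50 CPM or more in each library, ran from 5.04 to 3.22 on the log2 scale. Nxph1, which encodes the neurexin ligand neurexophilin 1, led them (chr6:8948431-9249032). It was at 1898, 2271, 3073 and 3157 CPM, with both libraries of batch 2 above both of batch 1. Oligodendrocytes came next among the types with a mean of 997 CPM. Pax2 (4.97), Gad1 (4.89), Slc6a5 (4.39), Kit (3.52), Gad2 (3.38) and Nrxn3 (3.29) were also among the 15. Kit, the receptor of stem cell factor and known from interneurons of the molecular layer, was at 595, 693, 533 and 544 CPM against means of 74.2 in progenitors and 212 in meningeal cells, the next type. The remaining members included Cacng3 (4.36), an auxiliary subunit of AMPA receptors, Scube1 (4.25), a secreted and membrane-bound EGF-repeat protein, Megf11 (3.29), another EGF-repeat protein, the procollagen protease Adamts2 (3.24) and Rgs6 (3.22), a regulator of G protein signalling.

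Noncoding genes beside the markers were also counted. Gm20395, an antisense gene inside Pax2 (chr19:44773762-44784512, - strand), was at 97.0, 83.9, 99.7 and 85.1 CPM and 4.80 above the pooled types on the log2 scale. Gm14204 (chr2:158595472-158610723, - strand) starts 44 bases from Slc32a1, in the stretch capitalised above, and was at 130, 142, 186 and 175 CPM, or 4.29 above the pooled types. Whether the counting used strand is not given in the sources used here. How far the reads of overlapping genes on opposite strands were kept apart was not tested. The lincRNA 9330158H04Rik was 3.50 above the pooled types.

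Against the GABA.interneuron type, a small group of 406 nuclei, 4.47% of genes were more than 2-fold higher in 4 of 4 libraries and 3.63% were more than 2-fold lower. The corresponding shares against Purkinje cells were 6.84% and 4.61%. Zfhx3, a homeobox factor, had a mean of 1156 CPM in the GABA.interneuron type and 7.04 in the differentiated interneurons. Ptprk, a receptor phosphatase, had 1426 CPM against 468. In the other direction, Unc5c, a netrin receptor, had 10342 CPM in the differentiated interneurons against 529. Nxph1 (2600 CPM against 183), Kit (591 against 65.4) and Gad1 (807 against 115) were also higher in the differentiated interneurons, as were Pax2, Slc6a5 and Tfap2b above.

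Receptors and channels were largely above the progenitor level. The shares over all genes were 7.22% more than 2-fold higher and 6.32% more than 2-fold lower, as given above. Of 16 measured GABA-A and glycine receptor genes, 8 were more than 2-fold higher and 2 more than 2-fold lower in 4 of 4 libraries, with a median log2 difference of 1.52. Gabrb2, a beta subunit, had a mean of 174 CPM against 22.6, while Gabra4 (8.51 against 40.3) and Gabrb1 (67.9 against 198) lay lower. The glycine receptor gene Glra2, typical of immature neurons, had 289 ± 71.9 CPM (SD, n = 4) against 17.04. Of 23 glutamate receptor genes, 12 were higher and only Grin3a was lower (69.6 CPM against 274). Examples were the AMPA receptor gene Gria3 (512 against 56.7) and the metabotropic Grm8 (427 against 19.9). Of 30 ion channel genes, 18 were higher and 1, Kcnq3, was lower. The calcium channel subunit Cacna2d3 was at 917, 1098, 1370 and 1205 CPM against 83.9, and the large-conductance potassium channel gene Kcnma1 at a mean of 1090 against 39.3.

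Of the chloride transporters, Slc12a5, which exports chloride and makes GABA inhibitory, was at 52.8, 45.1, 33.9 and 42.6 CPM. That mean, 43.6 ± 7.80 (SD, n = 4), was above the 12.99 of progenitors and below the 133 of the GABA.interneuron type and the 102 of Purkinje cells. The chloride importer Slc12a2 was nearly level, at 62.7 CPM against 59.2 in progenitors and 52.4 in the GABA.interneuron type. For the exporter, the type therefore lay between progenitors on one side and the GABA.interneuron type and Purkinje cells on the other.

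Synapse adhesion genes were higher in part and migration genes were mixed. Of all genes, 7.22% were more than 2-fold higher and 6.32% more than 2-fold lower than in progenitors. Of 19 measured adhesion genes, 6 were more than 2-fold above progenitors and 0 below, with a median log2 difference of 0.95. The presynaptic adhesion gene Nrxn3 was at 15225, 16316, 20052 and 18634 CPM against 5690 in progenitors, and Lrrc4c, a netrin-G ligand, at a mean of 3810 against 409. Of 23 migration and guidance genes, 9 were higher and 2 lower, with a median of 0.13. The Reelin adaptor Dab1 (1085 CPM against 155), doublecortin Dcx (383 against 166) and Unc5c (10342 against 2095) were higher. The netrin receptor Dcc (3522 against 20168) and the semaphorin receptor Nrp1 (47.6 against 134) were lower. The netrin receptors Unc5c and Dcc thus stood on opposite sides of the progenitor level. Unc5d was also more than 2-fold higher.

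Cell cycle genes were lower than in progenitors and not lower than in the other GABAergic neurons. Of 20 S phase genes, 0 were higher and 13 lower than in progenitors, and of 20 G2/M genes, 0 were higher and 19 lower, with medians of -1.71 and -2.14 on the log2 scale. The proliferation marker Mki67 was at 60.5, 54.1, 22.0 and 32.2 CPM against a progenitor mean of 146, and the topoisomerase gene Top2a at 114, 101, 42.1 and 57.3 against 476. Both genes were higher in the libraries of batch 1. Against the GABA.interneuron type, 2 S phase and 1 G2/M genes were more than 2-fold higher in 4 of 4 libraries and 0 lower, beside the 4.47% and 3.63% of all genes given above, with medians of 0.92 and 1.43 on the log2 scale against 0.18 for all genes. Against Purkinje cells the counts were 0 and 3 higher and 0 lower, beside 6.84% and 4.61% of all genes, with medians of 0.75 and 1.13 against 0.19 for all genes. Of 18 measured apoptosis genes, 0 were more than 2-fold higher and 2 lower than in progenitors, beside 7.22% and 6.32% of all genes. The proapoptotic Bcl2l11, among the lower genes, was at 16.1 CPM against 83.3.

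To compare nuclei at one depth, each was thinned to 1400 UMIs, which 3600 of the 3601 nuclei reached. Of the thinned nuclei, 50.5% ± 3.42 (SD, n = 4) held a Pax2 UMI and 76.8% did without thinning. In progenitors the thinned share was 15.2%, in Purkinje cells 0.807% and in differentiated granule neurons, which should lack the gene, 0.628%. For Gad1 the thinned share was 64.3% (88.2% unthinned), against 5.10% in progenitors and 1.74% in granule neurons. For Gad2 it was 25.4% (49.3% unthinned), against 35.0% in the GABA.interneuron type. Nxph1 was found in 45.8% (54.6% unthinned) and in 60.3% of oligodendrocytes. These shares lie above those of granule neurons by a wide margin. For Mki67, the thinned share was 5.00%, against 16.2% in progenitors, 6.29% in granule neurons, 2.55% in Purkinje cells and 1.95% in the GABA.interneuron type. For Top2a it was 7.95%, against 34.2%, 7.05%, 3.49% and 3.00% in that order. Whether nuclei of the type were cycling cannot be read from these shares. At least 1 UMI of Pax2, Gad1 or Gad2 was found in 84.9%, 86.0%, 87.7% and 85.5% of thinned nuclei in the 4 libraries.

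Markers of other cell types were detected in the sums of the type. Granule lineage markers summed to 545, 552, 344 and 404 CPM, against 1425 to 1645 CPM in differentiated granule neurons. Purkinje markers summed to 174, 156, 57.7 and 75.1 CPM and astroglial markers to 228, 214, 181 and 187. Granule, Purkinje and astroglial markers were each higher in batch 1, as were Mki67 and Top2a. Their part in the results was not tested.

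The nuclei were not uniform. Divided after thinning, 1813 nuclei held a Pax2 UMI and 1787 did not. Nuclei with it had higher levels of Lhx5 (by 0.74 on the log2 scale), Dcc (0.69), Pax3 (0.63), Tfap2a (0.58) and Slc6a5 (0.40) in 4 of 4 libraries, and lower levels of Sorcs3 (-0.87), a neuronal sorting receptor, and Ptprk (-0.20) in 4 of 4. Tfap2b (0.18), Gad1 (0.17), Lhx1 (0.16) and Nrxn3 (0.13) were also higher with Pax2 in 4 of 4 libraries, by less. Since Pax2 chose the nuclei, no test was made.

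The deposited embedding, a 2-dimensional map of similarity between nuclei, spread the type over a stem, next to the progenitors, that forked into a pair of arms. It was cut into 4 zones, at places chosen after the data were seen. The stem held 1218 nuclei, the junction 729, the upper arm 727 and the lower arm 920, and 7 lay outside. Of all nuclei of the type, 653 (18.1%) lay within 0.25 units of a cut. A nucleus of the stem had a median of 2739 UMIs, of the junction 3009, of the upper arm 4326 and of the lower arm 5086, so depth changed along the map. The map was made from these counts, and differences between zones are given without a test.

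**Figure D2:**
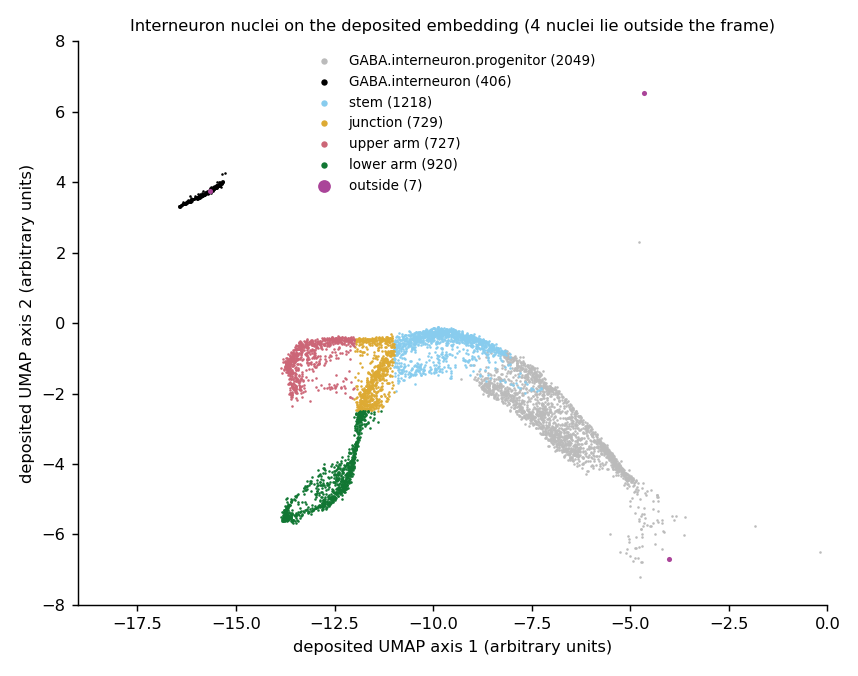
The nuclei of the type on the deposited embedding (axes in arbitrary units), coloured by zone, with progenitors in grey and the GABA.interneuron type in black. 4 nuclei lie outside the frame. A stem of 1218 nuclei leads through a junction of 729 to an upper arm of 727 and a lower arm of 920.

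Levels of Pax2, Pax3 and Dcc were highest in the stem. Pax2 had means of 922 CPM in the stem, 293 in the junction, 542 in the upper arm and 474 in the lower arm, so that it was lowest at the junction and not at the ends. Pax3 had 232 CPM in the stem and 35.5, 33.2 and 23.1 in the other zones, and Dcc 8718 against 1514, 966 and 2278. Lhx5 (172 CPM in the stem), Tfap2a (289) and Slc6a5 (253) were likewise highest there. Gad2 ran the other way, from 145 CPM in the stem to 227 in the junction, 349 in the upper arm and 263 in the lower arm. The exporter Slc12a5 had 12.2, 28.2, 68.0 and 60.7 CPM in that order, and so was higher in both arms than in the stem. Gad1 was highest in the junction (1149 CPM) and lowest in the lower arm (490).

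The arms carried different markers. Of all measured genes, 2.33% were more than 2-fold higher in the upper than in the lower arm in 4 of 4 libraries, and 2.13% were more than 2-fold higher in the lower arm. Of the 12 measured interneuron subtype markers, 6 were that much higher in the upper arm (Nxph1, Cdh22, Kit, Klhl1, Htr2a and Calb2) and 4 in the lower arm (Sorcs3, Ptprk, Edil3 and Sst). In the adult cerebellum, Nxph1 and Cdh22 are known from one class of molecular layer interneuron and Sorcs3 and Ptprk from the other. These genes are only part of the markers that split, and whether the arms match the adult classes was not tested. Nxph1 was at 6199, 7398, 9128 and 9066 CPM in the upper arm and at 969, 913, 1497 and 1417 in the lower arm. Klhl1, an actin-binding protein, had means of 360 and 10.98 CPM, the cadherin Cdh22 307 and 22.6, and Kit 1182 and 284. Sorcs3 was at 8.21, 6.52, 11.3 and 11.9 CPM in the upper arm and at 501, 544, 430 and 514 in the lower arm. The 4 libraries of one arm did not overlap those of the other for either gene. With all zone cuts raised by 0.25 units, the mean log2 ratio of the arms moved from -5.60 to -4.05 for Sorcs3 and from 4.89 to 4.58 for Klhl1. Edil3, a secreted matrix protein, had means of 145 and 990 CPM. Meis2, a homeobox factor, was higher in the upper arm (203 against 23.0). Sorcs3 (406 CPM) and Ptprk (668) were also high at the junction.

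Receptor genes divided between the arms. The shares over all genes were 2.33% more than 2-fold higher in the upper arm and 2.13% in the lower arm. Of 16 GABA-A and glycine receptor genes measured, 3 were more than 2-fold higher in the upper arm, among them Gabrb2, and 2, Gabra2 and Gabrg1, in the lower arm. Gabrb2 had means of 282 CPM in the upper and 84.5 in the lower arm. Gabra2, an alpha subunit common in immature neurons, was at 38.3, 40.4, 39.5 and 41.4 CPM in the upper arm and at 214, 254, 273 and 257 in the lower. The arms did not overlap for Gabra2 in any library. Of 23 glutamate receptor genes, Grik4 and Grin3a were higher in the upper arm, and 4 in the lower arm, among them Grm3, Grm7 and Grm8. The metabotropic receptor gene Grm8 had means of 28.2 and 1136 CPM, Grm7 122 and 1283, and the kainate receptor gene Grik4 307 and 14.02.

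**Figure D3:**
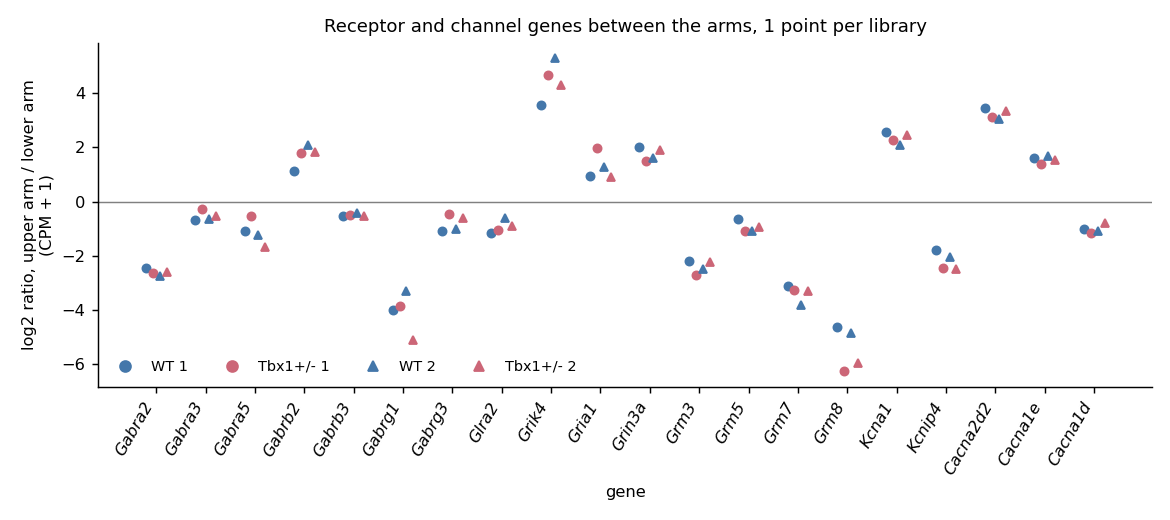
Ratio of the level of receptor and channel genes in the upper arm to that in the lower arm, on a log2 scale (CPM + 1), with 1 point per library, and 0 for no difference. Gabrb2 (means of 282 and 84.5 CPM) and Gabra2 (39.9 and 250) lie on opposite sides of 0, as do Grik4 (307 and 14.02) and Grm8 (28.2 and 1136).

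Of 30 channel genes, 4 were higher in the upper arm and 2 in the lower, beside 2.33% and 2.13% of all genes. Cacna2d2, a calcium channel subunit, had means of 636 CPM in the upper and 66.8 in the lower arm. Of 23 migration and guidance genes, 5 were higher in the upper arm (Robo1, Slit2, Erbb4, Epha5 and Nrp1) and 5 in the lower arm (Dab1, Robo3, Unc5d, Nrg1 and Plxna4). The ephrin receptor Epha5 had 253 and 29.6 CPM, the semaphorin receptor subunit Plxna4 45.4 and 753, and Dab1 402 and 2429. Of 19 measured adhesion genes, 5 were higher in the upper arm and 1 in the lower. Neither arm had more than 2-fold more of any of the 8 GABA handling genes or of the 20 S phase and 20 G2/M genes in 4 of 4 libraries. Outside the lists, and chosen after their values were seen, Htr7, a serotonin receptor gene, had the highest median ratio of the upper to the lower arm (5.26 on the log2 scale).

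The share of the type among annotated nuclei was compared between genotypes. It was 7.39% in WT library 1, 6.80% in Tbx1+/- library 1, 7.35% in WT library 2 and 8.32% in Tbx1+/- library 2. The Tbx1+/- values lay on either side of the WT values. The log2 difference was 0.04 with a standard error of 0.195 (adjusted p = 0.976 over 16 types, edgeR quasi-likelihood test). Progenitor nuclei per differentiated interneuron numbered 0.647, 0.631, 0.548 and 0.463 in the same order. The means were 0.598 ± 0.0697 in WT and 0.547 ± 0.119 in Tbx1+/- (SD, n = 2 each), a log2 difference of -0.14 (exact permutation test, two-sided, p = 0.6667; 2 libraries against 2 cannot give less than 0.3333). Both batch 2 ratios were below both batch 1 ratios. The upper arm held 17.7% of the type in WT library 1, 21.0% in Tbx1+/- library 1, 19.0% in WT library 2 and 22.3% in Tbx1+/- library 2. Both Tbx1+/- shares were the higher, by 3.33 percentage points in the means. With all zone cuts moved by 0.25 units the difference was 2.39 and 3.31 points. In the other zones the genotypes overlapped, with differences of -1.10 points in the stem, -1.96 in the junction and -0.05 in the lower arm. Libraries exchanged at random between the genotypes would be fully apart in a share of 0.3333 of cases. No test was made, since the zones were drawn after the data were seen.

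**Figure D4:**
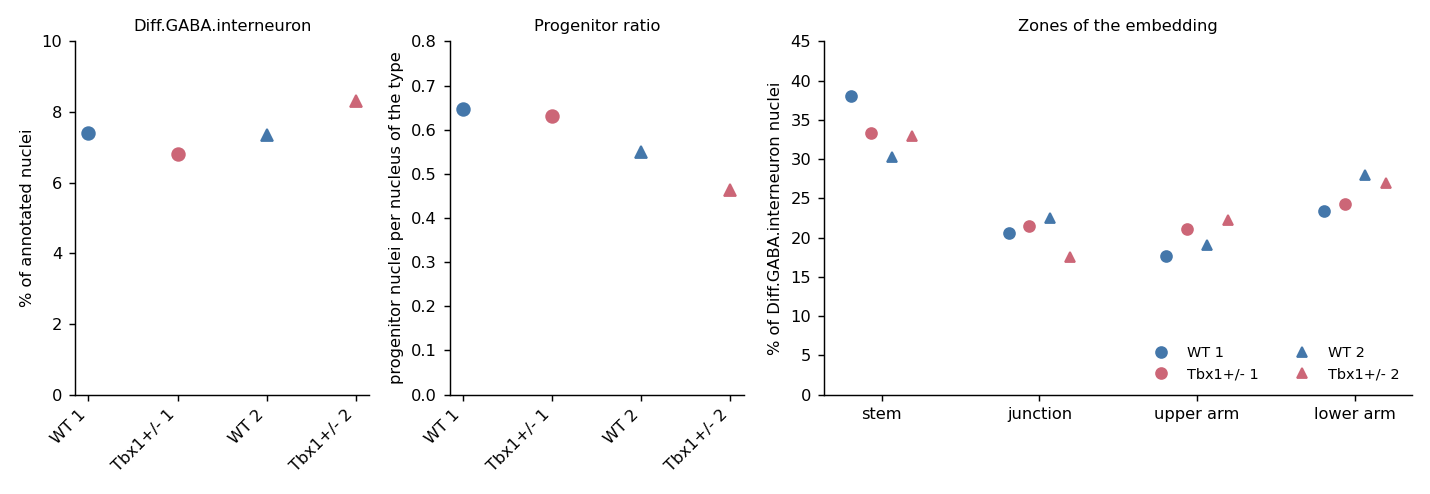
Share of the type among annotated nuclei (percent), progenitor nuclei per nucleus of the type, and share of each zone in the type (percent), with 1 point per library. The share of the type is 6.80% to 8.32% in Tbx1+/- and 7.35% to 7.39% in WT. In the upper arm both Tbx1+/- shares lie above both WT shares, and in the other zones the genotypes overlap.

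Few UMIs of Tbx1 itself were found in the type. It had 0 UMIs in WT library 1, 2 in Tbx1+/- library 1, 0 in WT library 2 and 0 in Tbx1+/- library 2. A count of 0 allows levels of up to 0.856, 0.915 and 0.588 CPM in the libraries without a UMI. These counts cannot check the genotype labels.

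No gene passed the test between genotypes with all libraries, the filter on low counts and no block. Of 13908 genes, 0 (0%) passed an adjusted p under 0.05 and a 1.5-fold change in edgeR's quasi-likelihood test, and DESeq2 also called 0. At an unadjusted p under 0.05 there were 111 genes with edgeR (0.798%) and 6 with DESeq2; of the former, 59 (0.424%) were higher and 52 (0.374%) lower in Tbx1+/-. Between the genotypes, 22.6% of all genes had CPM values that did not overlap. With the replicate number as a block, which stands for the batch, 3 genes (0.0216%) were called and 582 (4.18%) had an unadjusted p under 0.05. In the fit with no block, differences between batches enter the spread within a genotype. Its 0 called genes therefore do not show that no gene changed. Without the filter on low counts, and with no block, 1 gene was called, Ttr by 1.66 on the log2 scale (adjusted p = 7.88e-10, edgeR). Leaving out 1 library gave 10 called genes without WT library 1, 2 without Tbx1+/- library 1, 3 without WT library 2 and 1 without Tbx1+/- library 2. The 3 genes called with the block (edgeR) were all higher in Tbx1+/-. Ttr differed by 1.52 on the log2 scale with a standard error of 0.12 (adjusted p = 1.1e-32). Ptgds differed by 0.94 with 0.17 (adjusted p = 0.000414) and Il1rapl2 by 0.81 with 0.17 (adjusted p = 0.00702). In that fit each batch held 1 library per genotype. Its standard errors and p rest largely on a spread shared over genes, and do not measure how the difference varied between batches.

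The values of the 3 genes in other nuclei stand beside their own. Ttr, transthyretin, a carrier of thyroid hormone made by the choroid plexus, was at 47.1, 73.1, 42.7 and 200 CPM in the type (WT 1, Tbx1+/- 1, WT 2, Tbx1+/- 2). In all other PF/F nuclei pooled it was at 78.1, 136, 78.5 and 298 CPM, above the type in each library and in the same order of libraries within each batch. The choroid plexus markers Ttr and Kl together summed to 47.6, 74.3, 43.0 and 200 CPM in the type. Ptgds, a prostaglandin synthase abundant in the meninges, was at 36.5, 63.1, 5.80 and 15.1 CPM, and at 65.8, 116, 9.30 and 33.7 in the pooled nuclei. For Il1rapl2, a synaptic adhesion protein of the interleukin 1 receptor family, the type had 15.98, 17.4, 24.4 and 54.7 CPM and the pooled nuclei had 63.2, 46.1, 121 and 111, with higher levels in Purkinje cells (693, 589, 1068 and 873). Its log2 difference was 0.12 in batch 1 and 1.13 in batch 2, so that 1 library, Tbx1+/- 2, was the high one. In the upper arm it was at 41.0, 45.6, 63.4 and 126 CPM. Ttr was higher in Tbx1+/- in both batches, by more in batch 2. In fits with no block, leaving out Tbx1+/- library 2 took the log2 difference of Ttr from 1.64 to 0.69 and that of Il1rapl2 from 0.90 to -0.23. Leaving out Tbx1+/- library 1 took that of Ptgds from 0.84 to -0.43. For Il1rapl2 and Ptgds the difference stayed above 0 with any of the other libraries left out. The part of free RNA in these values was not tested.

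The genes with the smallest unadjusted p that moved alike in both batches were Ttr, Gm4356, 4930520O04Rik, Bmp5 and Gm11418 on the higher side and Cyp26b1, Runx2, Lsm11, Cd109 and Bloc1s6os on the lower side, and none passed the adjustment (adjusted p = 0.9999 for each, edgeR). Cyp26b1, which degrades retinoic acid, was at 18.8 and 17.1 CPM in WT and at 8.72 and 10.2 in Tbx1+/-, a log2 difference of -0.89 with a standard error of 0.245. In the pooled other nuclei Cyp26b1 was at 205 and 161 CPM in WT and at 170 and 149 in Tbx1+/-. Runx2, the transcription factor of bone formation, was at 50.5 and 40.9 CPM in WT and at 31.6 and 29.2 in Tbx1+/- (-0.58). In the pooled other nuclei Runx2 was at 57.8 and 69.6 CPM in WT and at 50.2 and 50.2 in Tbx1+/-. Lsm11, a factor of histone mRNA processing, was at 18.3 and 18.0 CPM against 11.1 and 10.4 (-0.74). In the pooled other nuclei Lsm11 was at 13.04 and 11.7 CPM in WT and at 10.9 and 12.1 in Tbx1+/-. Bmp5, a bone morphogenetic protein, was at 1.14 and 0.915 CPM in WT and at 3.61 and 3.33 in Tbx1+/-. Its WT values rest on few UMIs, near the 0.856 and 0.915 CPM that a count of 0 allows in WT libraries 1 and 2. In the pooled other nuclei Bmp5 was at 6.85 and 7.58 CPM in WT and at 7.33 and 10.1 in Tbx1+/-. In the pooled other nuclei the WT and Tbx1+/- values of Runx2 also lay apart, and whether the genotype difference of any of these genes differed between the type and other nuclei was not tested. For each of these 4 the genotypes did not overlap, as for 22.6% of all genes.

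The marker genes of the type did not pass the test between genotypes. The log2 difference was -0.10 for Pax2 (standard error 0.2505), 0.06 for Gad1 (0.240), 0.06 for Gad2 (0.233), 0.13 for Nxph1 (0.389) and 0.14 for Kit (0.230), none with an adjusted p below 0.9999 (edgeR). Of the 238 measured genes of all 23 lists, 0 were called and 1, Ttr, had an unadjusted p under 0.05 in edgeR, or 0.420% against 0.798% of all genes. With the replicate block, 1 of the 238, again Ttr, was called and 20 (8.40%) had an unadjusted p under 0.05, against 4.18% of all genes. Among the 20, erythroid markers gave 3 of 4 measured, all higher in Tbx1+/-, and sex genes gave 2 higher and 1 lower of 6. Ion channel genes gave 3 of 30, all higher, and glutamate receptor genes gave 2 higher and 1 lower of 23. GABAergic lineage factors gave 1 higher and 2 lower of 12. Each other list gave 1 or 0. The lists for GABA synthesis and for interneuron subtype markers gave 0. The X-inactivation gene Xist was at 565, 747, 1367 and 1628 CPM, a difference between batches more than between genotypes. It was also higher in Tbx1+/- within each batch. The sexes of the pooled mice cannot be told apart from the batch. Whether they differed between the genotypes was not tested beyond the fits of single sex genes given above.

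**Figure D5:**
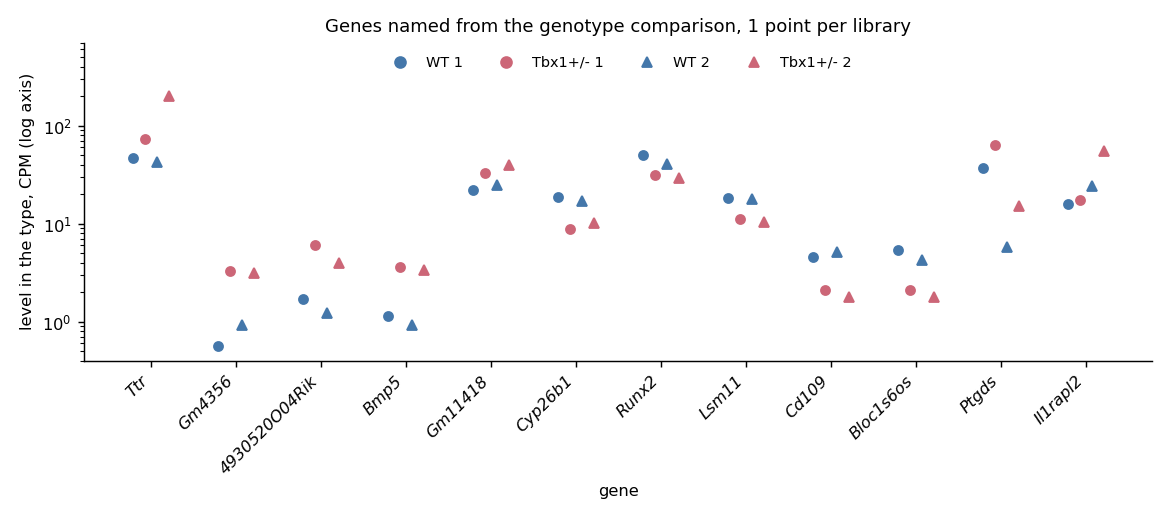
Levels in CPM (log axis) of the genes named in the genotype comparison, with 1 point per library, coloured by genotype and shaped by batch. Ttr in the library Tbx1+/- 2 stands at 200 CPM against 42.7 to 73.1 in the others, and Ptgds is split by batch.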

How the data were processed

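Single-nucleus RNA was counted from 3′ ends in 4 PF/F libraries. The deposited matrices hold whole UMI counts per gene and barcode, produced by the authors with Cell Ranger 7.0.0 (introns included, mm10). The cell type labels, the embedding and expected counts (UMIs per nucleus after the SoupX correction for free RNA) are from the authors' deposited annotation, made by Louvain clustering, label transfer and manual curation. The expected counts served only for the ratio to raw counts. The filter on detected genes used numbers counted from the raw matrices. The matrices lack the SoupX correction, and no doublet caller was run.

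UMIs were summed per library over the nuclei of a type in Python 3.11.15 (pandas 2.3.3, scipy 1.17.1, numpy 2.4.6). CPM are counts per 1000000 UMIs of that sum. CPM were compared between types as log2 ratios within a library with a pseudocount of 1 CPM. Genotypes were compared with edgeR 4.0.16 (filterByExpr, TMM, quasi-likelihood test) in R 4.3.3, and DESeq2 1.42.0 as an alternative, with Benjamini-Hochberg adjustment, at an adjusted p under 0.05 and a 1.5-fold change. The standard error is the log2 change divided by the root of its F statistic. Shares were tested with edgeR over 16 types at a false discovery rate of 0.1. Scripts were tested on simulated data. A replicate number stands for a batch of the study, and the libraries of a batch were paired by it. Their deviations from the genotype mean had a correlation of 0.450 over 13908 genes, which are not independent replicates. Of 32285 features, 32158 (99.6%) were found in GENCODE vM21. Limits at 0 UMIs are 3 counts of the total and, like counts, cover counting error only.

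The members and the 23 lists (265 genes) were chosen with earlier results of these data known. Named were Tbx1, list members, the 15 leading genes, and the 5 genes of smallest p in each direction that moved alike in both batches. Some genes are not reported here. Ptgds, Il1rapl2, Htr7 and Xist's batch pattern were singled out after their values were seen. Alternatives were RLE factors, no filter, DESeq2, the replicate block, nuclei with 2000 or more genes, leaving out the 8% of nuclei with the most UMIs, other denominators and leaving out each library. The 4 petrous bone libraries were used only for the number of annotated nuclei.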

Additional observations from a re-analysis of the deposited data

How the results depend on the processing

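The count of genes called between genotypes, 0, became 1 without the filter on low counts (Ttr), 3 with the replicate block, and 1 to 10 with a library left out, where the remaining library is given the spread of the other genotype. The highest, 10, came without WT library 1; there were 2 without Tbx1+/- library 1, 3 without WT library 2 and 1 (Ptgds) without Tbx1+/- library 2. RLE factors, DESeq2 and both filters on nuclei left it at 0. With the replicate block the share of the type was also not called (log2 difference 0.029, adjusted p = 0.987, edgeR). The progenitor ratio was not tested with the block, which leaves its mean difference the same by construction. The share of the type differed by -0.014 (log2) with TMM factors and by -0.12 (without Tbx1+/- library 2) to 0.17 (without Tbx1+/- library 1) with a library left out. Its highest value, 0.23, came with nuclei of 2000 or more genes. The progenitor ratio differed by -0.36 to 0.084. The ratio was above 0 only without Tbx1+/- library 2, where Tbx1+/- library 1 is set against the WT libraries of both batches, and it was lower in Tbx1+/- within each batch. Nuclei with 2000 or more genes gave a Pax2 difference to progenitors of 1.87 and a Gad1 difference of 3.31, and weighting nuclei equally gave 4.23 for Gad1. Unthinned shares were 76.8% for Pax2, 88.2% for Gad1, 49.3% for Gad2 and 54.6% for Nxph1. With a library left out, the genotype difference ranged from -0.43 (without Tbx1+/- library 1) to 2.65 for Ptgds, from -0.23 (without Tbx1+/- library 2) to 1.48 for Il1rapl2, from -0.29 to 0.12 for Pax2 (above 0 also at 0.05), from -0.036 to 0.16 for Gad1, from -0.17 to 0.35 for Gad2 (below 0 also at -0.08), from -0.21 to 0.58 for Nxph1 (also -0.15), from -0.0074 to 0.29 for Kit and from -0.96 to 0.22 for Meis2, which was at 0.027 without the 8% of nuclei with the most UMIs. The causes were not tested. Of the main summary values under the alternatives, 57 stayed the same, 13 moved and 3 changed sign. Same meant the same side of the threshold for tests, within 1 SD for levels and shares of nuclei with a UMI, and within 1.5-fold for numbers of genes. Some that moved thus kept their direction. Of the remaining values, 193 stayed the same, 8 moved and 12 changed sign, and the rest passed the threshold only under the alternative. Nuclei of this type were shallower in batch 1 than in batch 2.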
